A study of Homo sapiens with 4 samples.

Results

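The 9 genes described here were grouped as variant and polyadenylated histone genes. They were taken by their current symbols, *H2AX*, *H2AZ1*, *H2AZ2*, *MACROH2A1*, *MACROH2A2*, *H3-3A*, *H3-3B*, *H2BC5* and *H1-10*. They are 9 of the 58522 genes listed in the deposited table and all 9 were among the 16158 genes tested. RNA-seq was done on Ishikawa cells, a human endometrial adenocarcinoma line, long established and used as a model of endometrial epithelium. The cells carried a negative control shRNA (2 libraries) or an shRNA against *CDYL* (2 libraries, called *CDYL*-sh), delivered with polybrene and followed by puromycin selection. *CDYL* encodes a chromodomain protein that acts with histone-modifying enzymes as a transcriptional corepressor, and the comparison asks which transcripts differ when it is silenced. The *CDYL*-sh libraries are titled sh1 and sh2, which are also the names of different hairpins against *CDYL* in the supplement of the paper. Knockdown efficiency in Ishikawa cells was reported for hairpin sh1 and another hairpin, but not for hairpin sh2. The sources do not say whether the *CDYL*-sh libraries carried different hairpins or the same one. They are called replicates 1 and 2 here, and the sources do not tell separate cultures from repeat libraries of 1 culture. The p-values therefore measure the spread between these libraries, which may be technical or, in *CDYL*-sh, lie between hairpins, and all levels are those of 1 cell line.

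Canonical histones package newly replicated DNA, and their mRNAs end in a stem-loop instead of a poly(A) tail. Variant histones are mostly made from polyadenylated mRNAs through the whole cell cycle, and dedicated chaperones and remodellers place them into chromatin outside replication. H2A.Z marks promoters and enhancers, H2A.X is phosphorylated beside DNA double-strand breaks, macroH2A carries a large extra domain and is found in repressed chromatin, and H3.3 replaces H3 at active genes and at telomeres. Linker histones of the H1 class bind the DNA that enters and leaves the nucleosome.

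*CDYL* itself fell, from 50.4 and 53.0 CPM (counts scaled to a common TMM library size) in the controls to 11.4 and 9.70 CPM in *CDYL*-sh. This is 20.6% of the control level, and the log2 fold change and its standard error (SE) were -2.28 and 0.13 (edgeR adjusted p = 4.26e-09). Library totals ranged from 22341852 to 27688447 counts, the lowest being *CDYL*-sh replicate 2. The 11 epithelial markers summed to 3887 and 4221 CPM in the controls and 3591 and 3800 CPM in *CDYL*-sh. Of the 10 tested, 2 rose (*KRT19*, log2 change 0.70, and *KRT7*, 0.53) and 3 fell (*SOX17*, -0.72, *KRT18*, -0.34, and *EMX2*, -0.32). The keratin genes *KRT8* (1356 CPM on average) and *KRT18* (724 CPM) were the most abundant. The 8 stromal markers summed to 23.8 and 26.1 CPM in the controls and 18.0 and 16.0 CPM in *CDYL*-sh. They were led by the collagen genes *COL1A1* and *COL1A2*, and 2 of the 8 were at 0 in every library. Of the 4 tested, only *COL1A1* passed, and it fell (log2 change -0.82). The 5 endothelial markers summed to 3.81 and 4.26 CPM in the controls and 7.96 and 8.84 CPM in *CDYL*-sh, led by *PECAM1* and *VWF*. Of the 3 tested, only *PECAM1* passed, and it rose (log2 change 1.65). The 6 leukocyte markers summed to 8.08 and 11.8 CPM in the controls and 21.2 and 18.3 CPM in *CDYL*-sh. *CD68*, which encodes a lysosomal protein and is also made outside leukocytes, was the only one of these 6 tested. It passed and rose (log2 change 0.998). Of the other 5, all under 1 CPM in every library, 1 was at 0 throughout. The part of these markers in the results below was not tested.

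In *CDYL*-sh cells, *H2AX* and *H2AZ1* fell and *H2BC5* rose, and the other 6 histone genes did not pass the test. *H2AX* fell 1.91-fold and *H2AZ1* 1.46-fold, while *H2BC5* was 1.96-fold higher. Thus 3 of 9 genes passed, against 25.7% of all genes tested, where passing means an adjusted p under 0.05 by the quasi-likelihood test of edgeR on rounded expected counts. The 2 that fell stand beside a share of 12.1% of all genes lower, and the 1 that rose beside 13.6% higher. With so few genes this share is near that of all genes, and nothing about the group is read from it. Their median log2 fold change was -0.23, against 0.01 over all genes tested. CPM of the groups did not overlap for 7 of the 9 genes and for 64.3% of all genes tested. In *CDYL*-sh, 5 of the 7 were lower and 2 were higher, where 31.8% of all genes were lower and 32.5% were higher without overlap.

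**Figure D1:**
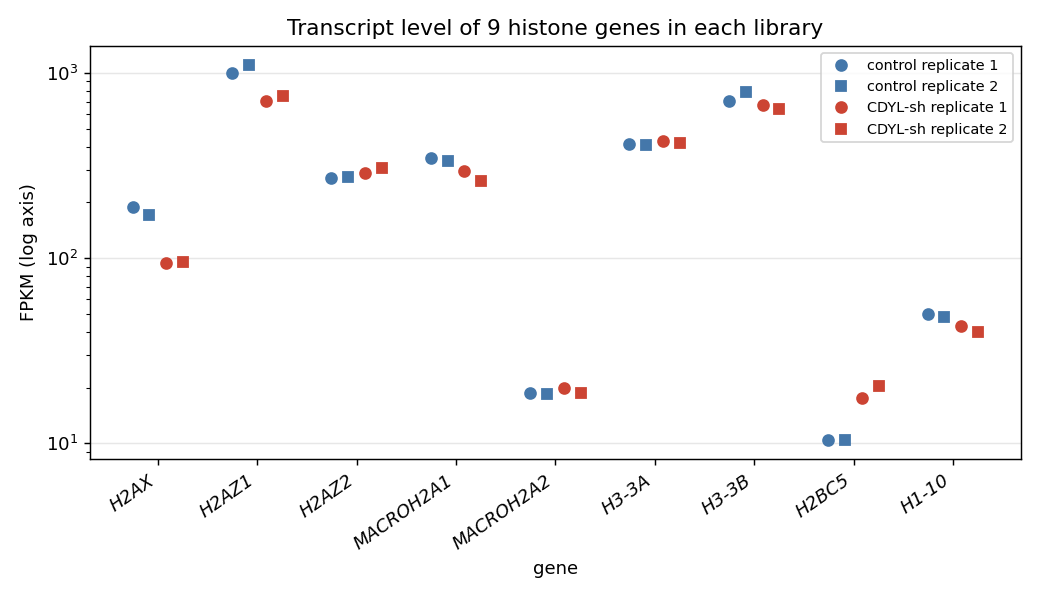
FPKM (fragment counts scaled to gene length and library total, log axis) of the 9 histone genes, with 1 point for each library, controls in blue and *CDYL*-sh in red. *H2AX* lay at 170 to 189 in the controls and 93.7 to 95.5 in *CDYL*-sh, and *H2BC5* at 10.4 in both controls and 17.5 to 20.5 in *CDYL*-sh.

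**Figure D2:**
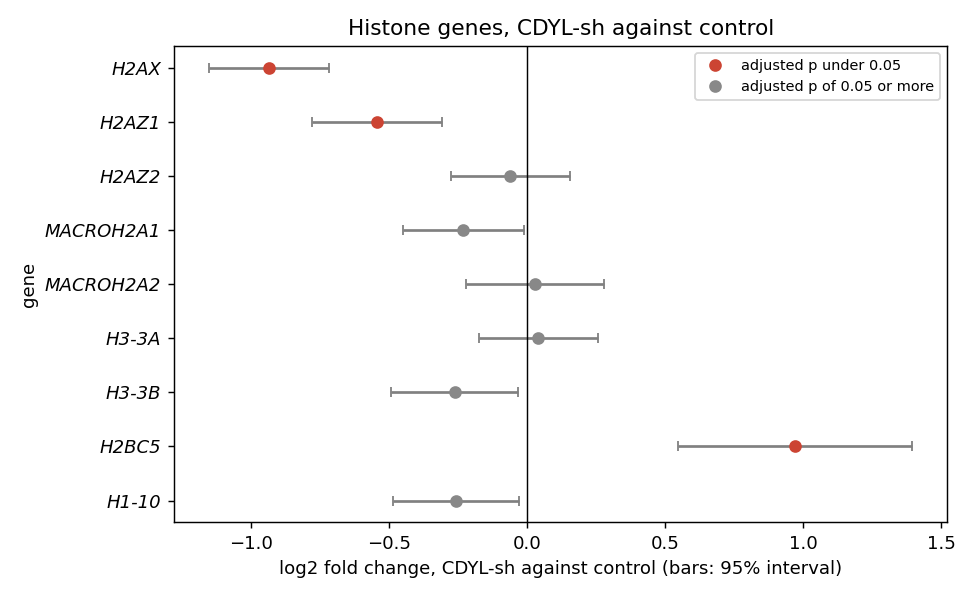
Log2 fold change of each histone gene, *CDYL*-sh against control, with its 95% interval from edgeR's quasi-likelihood fit, in red where the adjusted p was under 0.05. *H2AX* (-0.94), *H2AZ1* (-0.54) and *H2BC5* (0.97) are in red.

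The genes differed widely in level. Levels between genes are compared in FPKM, which corrects for length. In the controls, *H2AZ1* stood highest at 1054 ± 74.0 FPKM (SD, n = 2), in the top 0.854% of the genes tested, and was followed by *H3-3B* at 745 ± 55.7 FPKM. *H3-3A* measured 410 ± 2.28 FPKM, *MACROH2A1* 339 ± 9.51 FPKM, *H2AZ2* 273 ± 2.99 FPKM and *H2AX* 180 ± 13.7 FPKM. *H1-10* (49.2 ± 1.32 FPKM), *MACROH2A2* (18.6 ± 0.0849 FPKM) and *H2BC5* (10.4 ± 0.0141 FPKM) were the lowest. No neighbours in this order overlapped in the controls. In *CDYL*-sh, *H2AZ2* at 290 and 308 FPKM overlapped *MACROH2A1* at 294 and 262 FPKM, and *H2BC5* at 17.5 and 20.5 FPKM overlapped *MACROH2A2* at 19.9 and 18.6 FPKM. Summed over the 9 genes, the level was 3003 and 3152 FPKM in the controls and 2565 and 2546 FPKM in *CDYL*-sh, or 83.1% of the control sum. The largest part of that difference lay in *H2AZ1*, whose mean was 1054 FPKM in control and 727 FPKM in *CDYL*-sh. In RNA from a whole culture, fewer cells with a transcript and less of it per cell cannot be told apart.

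The stem-loop that ends canonical histone mRNAs is shown for the genes that carry it, because it is the mark of histone mRNAs without a poly(A) tail. It was searched as a histone-type stem of 6 base pairs around a loop of 4 bases in the canonical transcripts of GENCODE release 44 on GRCh38. It was present in 2 of the 9 genes, *H2AX* and *H2BC5*, and in 64 of 77 other histone genes with a transcript sequence. The loop is in capitals.
H2AX (chr11:119094898-119094913, minus strand): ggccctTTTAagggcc
H2BC5 (chr6:26158587-26158602, plus strand): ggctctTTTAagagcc
Both lie in the 3′ untranslated region, 49 bases past the stop codon in *H2AX* and 36 bases past it in *H2BC5*. The canonical *H2AX* transcript runs on for 1024 bases after the stem-loop, and that of *H2BC5* for 5 bases. GENCODE lists 2 transcripts of each, of 1373 and 1592 bp for *H2AX* and of 486 and 789 bp for *H2BC5*. Of these 2 stem-loop genes, *H2AX* fell and *H2BC5* rose. Whether their reads came from forms with or without a poly(A) tail was not tested.

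The stretch of 250 bases before the start site is given for the 3 genes that passed the test and for *H2AZ2*, the close relative of *H2AZ1* that did not. The sequences are from RefSeq on GRCh38.p14, 5′ to 3′ on the strand of the gene. Capitals mark CCAAT and TATAAA, each searched on both strands.
H2AX (chr11:119095466-119095715, minus strand): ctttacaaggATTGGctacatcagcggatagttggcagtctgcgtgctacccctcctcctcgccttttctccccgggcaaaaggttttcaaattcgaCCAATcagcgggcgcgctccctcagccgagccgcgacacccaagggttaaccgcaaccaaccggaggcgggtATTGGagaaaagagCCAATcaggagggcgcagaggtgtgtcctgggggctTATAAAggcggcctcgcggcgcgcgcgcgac
H2AZ1 (chr4:99950276-99950525, minus strand): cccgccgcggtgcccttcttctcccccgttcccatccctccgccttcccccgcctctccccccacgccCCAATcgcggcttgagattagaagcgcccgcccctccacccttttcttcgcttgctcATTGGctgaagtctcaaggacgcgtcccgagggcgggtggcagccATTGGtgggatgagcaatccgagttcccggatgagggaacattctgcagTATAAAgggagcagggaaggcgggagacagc
H2AZ2 (chr7:44848088-44848337, minus strand): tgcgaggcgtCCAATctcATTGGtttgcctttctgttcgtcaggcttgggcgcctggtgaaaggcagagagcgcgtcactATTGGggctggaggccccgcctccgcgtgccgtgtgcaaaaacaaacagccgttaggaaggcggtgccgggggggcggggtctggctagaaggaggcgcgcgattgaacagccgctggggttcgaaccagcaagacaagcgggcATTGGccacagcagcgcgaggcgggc
H2BC5 (chr6:26157872-26158121, plus strand): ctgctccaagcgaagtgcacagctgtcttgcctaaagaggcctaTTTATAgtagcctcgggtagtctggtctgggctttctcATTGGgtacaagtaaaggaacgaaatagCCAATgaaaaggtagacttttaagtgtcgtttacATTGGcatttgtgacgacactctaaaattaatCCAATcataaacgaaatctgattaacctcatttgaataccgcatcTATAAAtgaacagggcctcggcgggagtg
CCAAT occurred 4 times before *H2AX*, 3 times before *H2AZ1*, 4 times before *H2AZ2* and 4 times before *H2BC5*, and 32.0% of all 35116 promoter windows of this length held it. TATAAA occurred 1 time before *H2AX*, 1 time before *H2AZ1* and 2 times before *H2BC5* but was not found before *H2AZ2*, and 10.7% of all windows held it. Of the other 5 histone genes, *H1-10* held TATAAA without CCAAT, *H3-3A* held CCAAT alone, *H3-3B* held both, and the macroH2A genes held neither. For each gene only the window nearest the canonical start was searched, though 4 were listed for *H3-3A* and 2 each for *MACROH2A1* and *H2BC5*. GGGCGG, the core of the SP1 site, was found in 42.6% of all windows, with 2 matches before *H2AZ1*, 1 before *H2AZ2* and none before *H2AX* or *H2BC5*. The octamer ATTTGCAT of many H2B promoters was found in 1.63% of all windows and in that of *H3-3B* but not of *H2BC5*. TTTNGCGC, a core of E2F sites, was found in 1.51% of all windows and in none of the 9. Letters that match a motif are no evidence of binding, and the part of these motifs in the changes was not tested.

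*H2AX* (ENSG00000188486) encodes the H2A variant that the kinases ATM, ATR and DNA-PK phosphorylate beside DNA breaks. It occupies bases 119093874 to 119095465 of chromosome 11 (GRCh38, minus strand), and its canonical transcript has 1 exon. It had 6716 and 5897 counts in the controls and 3315 and 2730 counts in *CDYL*-sh. On the length-corrected scale it measured 189 and 170 FPKM in the controls and 93.7 and 95.5 FPKM in *CDYL*-sh, so both *CDYL*-sh libraries were below both controls. The log2 fold change was -0.94 (SE 0.10, 95% interval -1.15 to -0.72, edgeR adjusted p = 7.7e-06). Over 15 alternatives the log2 fold change lay between -0.99 and -0.89.

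*H2AZ1* (ENSG00000164032) and *H2AZ2* (ENSG00000105968) encode the closely related proteins H2A.Z.1 and H2A.Z.2. *H2AZ1* occupies bases 99948086 to 99950355 of chromosome 4 (minus strand), and *H2AZ2* bases 44826791 to 44848087 of chromosome 7 (minus strand), each with 5 exons in its canonical transcript. *H2AZ1* measured 1002 and 1106 FPKM in the controls and 706 and 749 FPKM in *CDYL*-sh, from 18693, 20165, 13113 and 11330 counts in the same order. For *H2AZ1* both *CDYL*-sh libraries were below both controls, with a log2 change of -0.54 (SE 0.11, 95% interval -0.78 to -0.31, edgeR adjusted p = 0.00178). With limma on log2(FPKM + 1) the value was -0.53 and missed the threshold (limma adjusted p = 0.0582, range 6.98e-06 to 0.167 over 15 alternatives).

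*H2AZ2* did not pass the test. It had 6289 and 5655 counts in the controls and 5676 and 4814 counts in *CDYL*-sh, with a log2 fold change of -0.06 (SE 0.10, 95% interval -0.28 to 0.16, edgeR adjusted p = 0.702). In CPM the groups overlapped, at 226 and 213 in control and 203 and 218 in *CDYL*-sh. In FPKM they did not, since *H2AZ2* measured 271 and 275 FPKM in the controls and 290 and 308 FPKM in *CDYL*-sh, a log2 difference of 0.13 that did not pass with limma on log2(FPKM + 1) (adjusted p = 0.369). The scales differ because the length by which its FPKM was divided was not the same in the libraries, as given with the effective lengths.

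Of the summed H2A.Z transcripts, *H2AZ2* made up 21.3% and 19.9% of FPKM in the controls and 29.1% in each *CDYL*-sh library. In counts, which are not corrected for length, its share was 25.2% and 21.9% in the controls and 30.2% and 29.8% in *CDYL*-sh. The shares did not overlap between the groups on either scale. The sum of both genes was 1272 and 1381 FPKM in the controls and 995 and 1056 FPKM in *CDYL*-sh, or 77.3% of the control level. With 2 libraries against 2, an exact permutation test of such a share cannot go below p = 0.333 (two-sided), so the shares are given as descriptions.

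**Figure D3:**
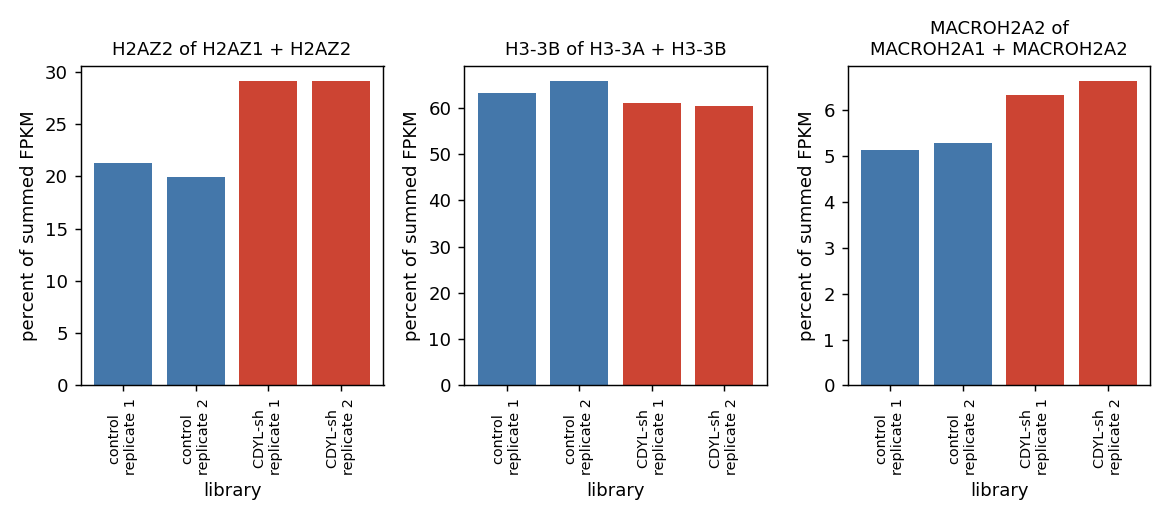
Share of the named gene in the summed FPKM of its pair (percent), 1 bar for each library, controls in blue and *CDYL*-sh in red. The share of *H2AZ2* was 19.9 to 21.3% in the controls and 29.1% in *CDYL*-sh, that of *H3-3B* 63.2 to 65.8% and 60.3 to 61.0%, and that of *MACROH2A2* 5.12 to 5.29% and 6.34 to 6.63%.

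The macroH2A genes *MACROH2A1* (ENSG00000113648, chromosome 5, bases 135334381 to 135399914, minus strand) and *MACROH2A2* (ENSG00000099284, chromosome 10, bases 70052544 to 70112282, plus strand) have 9 exons each in their canonical transcripts. *MACROH2A1* measured 346 and 332 FPKM in the controls and 294 and 262 FPKM in *CDYL*-sh. Both *CDYL*-sh libraries were below both controls, and the log2 fold change of -0.23 (SE 0.10, 95% interval -0.45 to -0.01) did not pass after adjustment (edgeR adjusted p = 0.112). With GC and length offsets it was -0.08. *MACROH2A2*, at 18.7 and 18.6 FPKM in the controls and 19.9 and 18.6 FPKM in *CDYL*-sh, had a log2 fold change of 0.03 (SE 0.12, 95% interval -0.22 to 0.28, edgeR adjusted p = 0.892). *MACROH2A1* was the main macroH2A transcript in every library, with *MACROH2A2* at 5.12% and 5.29% of their summed FPKM in the controls and 6.34% and 6.63% in *CDYL*-sh. *MACROH2A2* overlaps *AIFM2* on the opposite strand by 14060 bp. *AIFM2* had 2315 to 2626 counts per library, and *PITX1-AS1*, opposite *MACROH2A1*, had 24.8 to 57.7 counts.

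Among the 5 H2A variant genes together, the summed level was 1826 and 1902 FPKM in the controls and 1403 and 1432 FPKM in *CDYL*-sh. The share of *H2AX* in this sum was 10.4% and 8.93% in the controls and 6.68% and 6.66% in *CDYL*-sh. *H2AZ1* remained the largest contributor in every library, with 54.9% and 58.2% in the controls and 50.3% and 52.3% in *CDYL*-sh, while *H2AZ2* went from 14.8% and 14.5% to 20.6% and 21.5%. The share of *MACROH2A1* overlapped between the groups, at 18.9% and 17.5% in control and 20.9% and 18.3% in *CDYL*-sh.

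*H3-3A* (ENSG00000163041, chromosome 1, bases 226061851 to 226072019, plus strand) and *H3-3B* (ENSG00000132475, chromosome 17, bases 75776434 to 75785893, minus strand) encode the same H3.3 protein from different transcripts. *H3-3A* measured 411 and 408 FPKM in the controls and 430 and 419 FPKM in *CDYL*-sh, with a log2 change of 0.04 (SE 0.10, 95% interval -0.18 to 0.26, edgeR adjusted p = 0.807) that turned to -0.12 with GC and length offsets. *H3-3B* measured 705 and 784 FPKM in the controls and 673 and 635 FPKM in *CDYL*-sh, with a log2 change of -0.26 (SE 0.11, 95% interval -0.49 to -0.03, edgeR adjusted p = 0.0838). Each *CDYL*-sh library was below each control for *H3-3B*, and this gene passed with DESeq2 (adjusted p = 0.0337) and with GC and length offsets (adjusted p = 0.0188), with adjusted p-values of 0.00674 to 0.431 over 15 alternatives. The H3.3 genes summed to 1116 and 1192 FPKM in the controls and 1102 and 1053 FPKM in *CDYL*-sh, 93.4% of the control level. *H3-3B* gave 63.2% and 65.8% of that sum in the controls and 61.0% and 60.3% in *CDYL*-sh.

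Reads of *H3-3A* are not certain to be its own. The processed pseudogene *H3P6* on chromosome 2 is identical to the canonical *H3-3A* transcript over all 411 of its bases, and matches *H3-3B* at 323 of them. It was listed at 1253 and 1240 counts in the controls and 1134 and 926 counts in *CDYL*-sh, 12.4% and 12.6% of the counts of *H3-3A* and *H3P6* together in the controls and 10.9% and 11.2% in *CDYL*-sh. For *H3P6* the log2 change was -0.15 (SE 0.11, edgeR adjusted p = 0.342). The sum of *H3-3A* and *H3P6* was 363 and 372 CPM in the controls and 370 and 374 CPM in *CDYL*-sh, which overlapped. *H3-3B* overlaps the coding gene *UNK* on the opposite strand by 1088 bp. *UNK* had 2286 and 1993 counts in the controls and 1749 and 1188 counts in *CDYL*-sh, and the alignment is described as using read orientation, but whether the counting used strand is not given in the sources used here, so the origin of reads in the shared stretch is uncertain.

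*H2BC5* (ENSG00000158373), a gene of the H2B cluster at bases 26158122 to 26171349 of chromosome 6 (plus strand), was the only one of the 9 that passed the test as higher. It encodes a core H2B protein. It had 106 and 99 counts in the controls and 211 and 163 counts in *CDYL*-sh, which is 10.4 FPKM in each control and 17.5 and 20.5 FPKM in *CDYL*-sh. In CPM it stood at 3.81 and 3.73 in the controls and 7.53 and 7.39 in *CDYL*-sh, and the groups did not overlap on either scale. The log2 fold change was 0.97 (SE 0.20, 95% interval 0.55 to 1.40, edgeR adjusted p = 0.00188). It had the fewest counts of the 9 genes and the widest interval. Over 15 alternatives the log2 fold change lay between 0.80 and 0.99. It is a member of a family of near-identical H2B genes among which reads could be divided. A lncRNA on the opposite strand (ENSG00000283064) overlaps it by 10585 bp and had 0 to 11.0 counts per library. On the same strand, ENSG00000291336 and ENSG00000291338 each overlap it by 13228 bp, and neither has a count in the deposited table. Their part in the reads of *H2BC5* was not tested. The pseudogene *LARP1P1*, also on the same strand, overlaps it by 292 bp and had 0 counts in every library. Over the 4 libraries, the genes with the pattern most like that of *H2BC5* (Euclidean distance of centred log2 CPM, 11145 genes averaging 5 CPM or more) were *DHX57* at a distance of 0.0361, *TMPRSS4* at 0.0538 and *CRYBG1* at 0.0561. With only 4 libraries, few patterns can be told apart.

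*H1-10* (ENSG00000184897), which encodes the linker histone H1.10 and occupies bases 129314771 to 129316286 of chromosome 3 (minus strand), had 1665 and 1565 counts in the controls and 1414 and 1078 counts in *CDYL*-sh. It measured 50.2 and 48.3 FPKM in the controls and 42.8 and 40.1 FPKM in *CDYL*-sh, each *CDYL*-sh library being below each control. The log2 fold change of -0.26 (SE 0.11, 95% interval -0.49 to -0.03) did not pass after adjustment (edgeR adjusted p = 0.0909), and with GC and length offsets it was -0.13. *H1-10* overlaps the antisense gene *H1-10-AS1* by 895 bp, which had 2.02 to 7.08 counts per library.

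The length by which the deposited FPKM were divided follows from the count, the FPKM and the total count of each library. For *H2AX* this effective length was 1280 to 1288 bp in all 4 libraries, for *H2AZ1* 674 to 677 bp, and for *H3-3A* 779 to 784 bp. For *H2AZ2* it was 839 and 763 bp in the controls and 714 and 700 bp in *CDYL*-sh, a fall of the mean by 11.7%. Both *CDYL*-sh values were below both controls, though the controls lay further apart than the nearest values of the groups. An effective length that was shorter without overlap and by at least 1.1-fold was seen in 4.78% of the 6363 genes with at least 10 FPKM in every library, a limit chosen after the values of *H2AZ2* were seen. *MACROH2A1* went the other way, with 1276 and 1312 bp in the controls and 1342 and 1374 bp in *CDYL*-sh, and *H3-3B* stood at 1067 and 1028 bp against 994 and 1011 bp. Without overlap but at any size, the length differed in 6 of the 9 genes and in 49.7% of those 6363 genes, and by at least 1.1-fold, shorter or longer, in *H2AZ2* alone and in 9.76%. *H2BC5* was longer in 1 library only, with 368 and 352 bp in the controls and 439 and 356 bp in *CDYL*-sh. GENCODE lists 8 transcripts of *H2AZ2* from 439 to 3804 bp and 22 of *MACROH2A1* from 293 to 10982 bp, and the part of transcript use in these lengths was not tested.

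**Figure D4:**
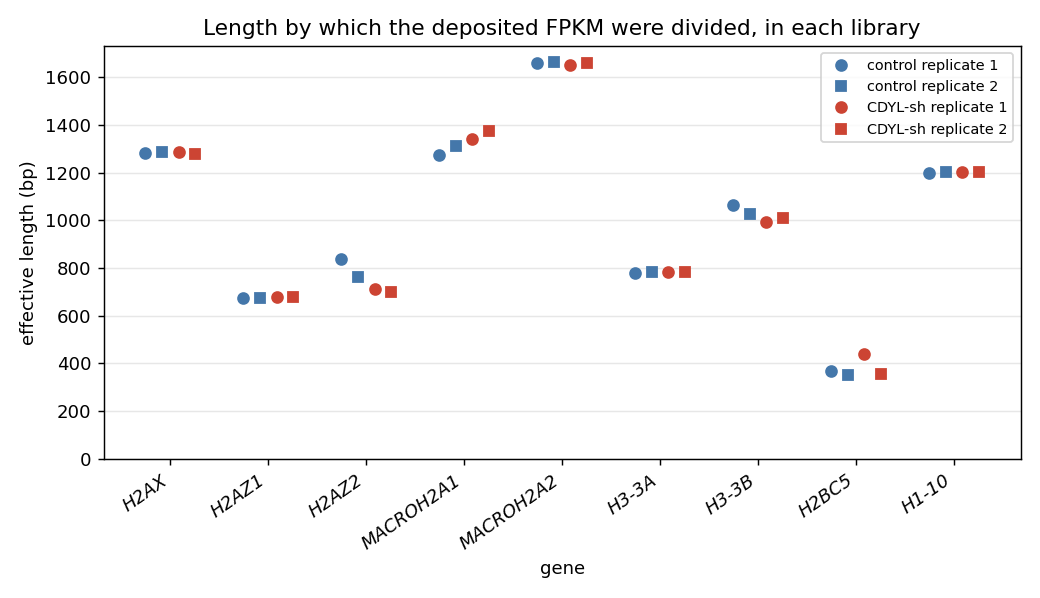
Effective length (bp) implied by the count and FPKM columns for each histone gene, with 1 point for each library, controls in blue and *CDYL*-sh in red. *H2AZ2* went from 763 to 839 bp in the controls to 700 to 714 bp in *CDYL*-sh, while *H2AX* lay between 1280 and 1288 bp in all 4 libraries.

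Gene lists around these histones are given beside all genes tested, of which 13.6% were higher and 12.1% lower. Of 31 genes of histone variant deposition and exchange, 2 passed as higher (6.45%), 5 as lower (16.1%) and 24 fell short, with a median log2 fold change of -0.11. The share that passed, 22.6%, is near the 25.7% of all genes, and nothing about the list is read from it. *SRCAP*, the ATPase of the complex that exchanges H2A for H2A.Z, went from 141 and 117 CPM in the controls to 82.1 and 51.8 CPM in *CDYL*-sh, a log2 change of -0.94 (SE 0.16, edgeR adjusted p = 0.0003). *EP400*, the ATPase of a further complex that deposits H2A.Z, had a log2 fold change of -0.55 (SE 0.11, edgeR adjusted p = 0.00126). The nucleosome assembly gene *NAP1L1* rose by 0.68 on the log2 scale (SE 0.12, edgeR adjusted p = 0.000421). The other genes of the list past the test were *RUVBL1*, *TRRAP* and the H3.3 chaperone gene *HIRA*, each lower, and the FACT subunit gene *SUPT16H*, which was higher.

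Of 21 genes for kinases, phosphatases and readers of H2A.X, 8 passed as higher (38.1%, against 13.6% of all genes), 1 as lower (4.76%, against 12.1%) and 12 fell short, with a median log2 fold change of 0.30. *TP53BP1*, which binds chromatin beside breaks, went from 30.1 and 26.2 CPM in the controls to 50.2 and 47.8 CPM in *CDYL*-sh, a log2 change of 0.80 (SE 0.12, edgeR adjusted p = 0.000133). *RAD50* of the break-sensing MRN complex rose by 0.96 on the log2 scale (SE 0.20), and *PRKDC*, the catalytic subunit of DNA-PK, by 0.53 (SE 0.11). The reader gene *MDC1* was the 1 that was lower. Fewer genes of this list passed whichever library was left out, fewest without *CDYL*-sh replicate 2, as was also so for all genes tested.

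Of 28 genes of S phase and proliferation, 4 passed as higher (14.3%, against 13.6% of all genes), 9 as lower (32.1%, against 12.1%) and 15 fell short, with a median log2 fold change of -0.22. The topoisomerase gene *TOP2A* rose by 0.98 on the log2 scale (SE 0.12) and the polymerase gene *POLA1* by 0.90 (SE 0.16), whereas the replicative helicase gene *MCM2* had a log2 fold change of -0.58 (SE 0.10). Fewer of these 28 passed whichever library was left out, fewest without control replicate 1 or without *CDYL*-sh replicate 2. Each time fewer of all genes tested passed too. Of 12 genes for transcription and 3′ end processing of histone mRNA, 4 passed as higher (33.3%, against 13.6% of all genes), 1 as lower (8.33%, against 12.1%) and 7 fell short, with a median log2 fold change of 0.13. *CASP8AP2* and *NPAT*, which work at the histone gene clusters, rose by 0.90 (SE 0.20) and 0.81 (SE 0.19) in log2 units, as did the cleavage factor gene *CPSF2* by 0.45 (SE 0.13). Fewer of these 12 passed whichever library was left out, fewest without *CDYL*-sh replicate 2, and the same held for all genes tested.

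Of 79 other histone genes, 24 were tested, as the rest had too few counts, and 61 were under 1 CPM in every library. *CENPA*, the H3 variant of centromeres, was the only one past the test (4.17% of the 24, against 25.7% of all genes), with 38.4 and 35.4 CPM in the controls and 23.7 and 20.6 CPM in *CDYL*-sh (log2 fold change -0.73, SE 0.13, edgeR adjusted p = 0.000444). *H2BC12* had a log2 fold change of 0.20 (SE 0.13), *H1-2* one of 0.52 (SE 0.19, edgeR adjusted p = 0.0533) and *H2AC6* one of -0.10 (SE 0.19). The median of the 24 genes was 0.03. Many of the 24 averaged near or under 1 CPM, with standard errors up to 0.61, so for these a missed threshold says little. More than 1 of these histone genes passed when control replicate 2 or *CDYL*-sh replicate 1 was left out, although fewer of all genes did. In place of 1 gene, 2 passed with RLE size factors, with no filter, with the replicate block and with GC and length offsets. With at least 10 counts in every library, 3 passed. In these fits with all libraries, 4323 to 5393 of all genes passed, against 4157.

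**Figure D5:**
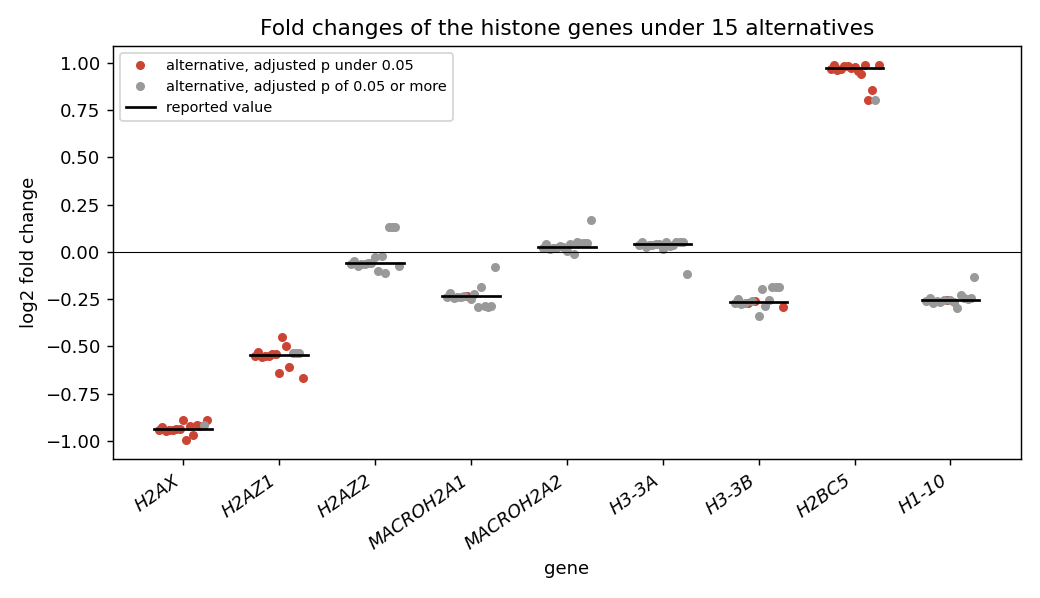
Log2 fold change of each histone gene under 15 alternatives (points, red where the adjusted p was under 0.05) with the reported value as a black line. *H2AX* stayed between -0.99 and -0.89, *H2AZ1* between -0.67 and -0.45 and *H2BC5* between 0.80 and 0.99, while *H2AZ2*, *H3-3A* and *MACROH2A2* had values on both sides of 0.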

How the data were processed

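RNA-seq libraries of Ishikawa cells were made by the authors with the TruSeq RNA kit and sequenced as paired-end reads. TopHat served for alignment to GRCh38.p10. RSEM and edgeR are also listed in the notes on processing, without a version. The annotation release is not given in the sources used here. The deposited table holds an expected count per gene and library (an estimated number of reads, often not whole) and an FPKM computed by the authors. Symbols were matched for 98.1% of identifiers. Gene positions came from GENCODE release 44 on GRCh38 and promoters from RefSeq on GRCh38.p14.

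Expected counts were rounded, filtered with filterByExpr, normalized by TMM and tested with the quasi-likelihood test of edgeR 4.0.16 (prior count 2) over all 16158 genes, *CDYL*-sh against control, with Benjamini-Hochberg adjustment and a threshold of 0.05. Standard errors and 95% intervals were derived from the F statistic. Alternatives used RLE or no size factors, other filters (no filter, at least 10 counts in every library), DESeq2 1.42.0, limma 3.58.1 (voom, or log2 FPKM with a pseudocount of 1 or 0.1 and a mean FPKM of at least 0.5, or no filter), a replicate block, each library left out, and offsets for GC content and gene length, which 98.0% of genes tested had. The genes, lists and tests were chosen with earlier results of these data known. Named were all 9 genes, *CDYL*, up to 3 called genes of each list by adjusted p, the 2 most abundant markers of each cell type, 4 of the 5 most abundant other histone genes (1 is not reported here) and 3 genes of like pattern. *RUVBL1*, *TRRAP*, *HIRA*, *SUPT16H*, *MDC1*, *KRT19*, *KRT7*, *SOX17* and *EMX2* were added after their values were seen.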

Additional observations from a re-analysis of the deposited data

How the results depend on the processing

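The directions of *H2AX*, *H2AZ1* and *H2BC5* held in each of 15 alternatives. *H2AX* and *H2BC5* passed in 14 of them and *H2AZ1* in 12. With limma on log2(FPKM + 1) without a filter no gene passed (0 of 25884, with 4572 at an unadjusted p under 0.05), nor any of the 9 histone genes (5 at an unadjusted p under 0.05), and *CDYL* had a log2 fold change of -2.05 with an adjusted p of 0.141. Over all genes, 461 passed with limma on log2(FPKM + 1) and 507 with log2(FPKM + 0.1), against 4157. When each library was left out in turn, 2082 to 4006 genes passed, with the lowest number without *CDYL*-sh replicate 2, and 3 histone genes passed each time. Directions turned for genes that did not pass. *H2AZ2* had 0.13 with log2(FPKM + 1), with or without the filter, and 0.13 with log2(FPKM + 0.1), *H3-3A* had -0.12 with GC content and gene length offsets, and *MACROH2A2* had -0.0097 without *CDYL*-sh replicate 1 (range up to 0.0501 when a library was left out). The share of *H2AZ2* in its pair was 8.52 percentage points higher in *CDYL*-sh in FPKM and 6.48 in counts, a comparison added after seeing the data. With the replicate number as a block, 5393 of 16158 genes and 6 of the 9 histone genes passed. Those in addition were *H1-10*, *H3-3B* and *MACROH2A1*, each lower. The numbers are not known to pair the libraries, and the deviations of same-numbered libraries had a correlation of 0.030 across genes. In the fits on FPKM, 0 to 2 genes of each gene list passed. With the block, 14 of 31 genes of variant deposition and 22 of 28 of S phase passed, beside 5393 of 16158 genes in all. With the offsets, 11 genes of variant deposition and 3 of histone mRNA passed, beside 5196 of 15828 genes in all. The cause of these differences was not tested. *H2BC5*, at 99 to 211 counts, is the gene most limited by depth, and groups of 2 libraries allow no test for an outlying library.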
